A study of Saccharomyces cerevisiae with 41 samples.

Results

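The CLB2 cluster is the group of budding yeast genes whose transcripts peak as cells enter and pass through mitosis. The 8 of its genes described here are CLB1 (YGR108W), CLB2 (YPR119W), CDC5 (YMR001C), CDC20 (YGL116W), SWI5 (YDR146C), ASE1 (YOR058C), HOF1 (YMR032W) and BUD4 (YJR092W). They were chosen by symbol, 1 probe set each, among 5337 genes tested, and all 8 passed the filter on dim probe sets. Transcript levels came from 41 Affymetrix Yeast 2.0 arrays of total RNA from haploid Saccharomyces cerevisiae of the YPH499 background, in 21 groups of strain and time. The deletion strains mig3Δ, snf1Δ, rad23Δ, snf1Δ rad23Δ and rad4Δ, written mig3, snf1, rad23, snf1rad23 and rad4 here, were set against wild type (WT). Cells grown in YPD, a glucose medium, were put in water, given UV-C at 100 J/m2 and returned to fresh YPD, and unirradiated cells were mock treated. All 6 strains were sampled without UV and at 30 and 60 min of recovery, and mig3, snf1 and WT also at 15 min. There were 2 arrays a group, described as biological replicates, but 1 for mig3 at 15 min. Mock-treated cells held for 15, 30 or 60 min in fresh medium are not analysed here, so a change after UV also contains any effect of the passage through water and fresh medium.

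The cluster is switched on in G2 by the forkhead protein Fkh2, the MADS box protein Mcm1 and the coactivator Ndd1. Ndd1 is activated by the mitotic cyclin kinase and by the polo kinase Cdc5, so products of the cluster act back on its transcription. The DNA damage checkpoint of budding yeast holds cells before anaphase, and nucleotide excision repair finds UV lesions through Rad4 bound to Rad23. Snf1 is the AMP-activated protein kinase of yeast and Mig3 a zinc finger repressor. In cultures that hold cells of every cell cycle stage, fewer cells in mitosis and less transcript in each of them cannot be told apart.

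Signals are on the log2 scale after the authors' normalization, so 1 unit is a 2-fold difference, and they compare arrays for 1 gene, not genes with each other. The deleted genes bore out the labels: SNF1, for one, lay at 2.09 to 2.74 on the 14 snf1 and snf1rad23 arrays, against 10.69 to 11.92 on the other 27. MIG3, RAD23 and RAD4 likewise stood at 1.91 to 2.27 where deleted and at 7.59 or more elsewhere. The a-specific genes MFA1, MFA2, STE2, BAR1, ASG7 and AGA2 were at 6.93 or more on every array. The alpha pheromone genes MF(ALPHA)1 and MF(ALPHA)2 were at most 4.82, but STE3, an alpha-specific receptor, ranged from 4.64 to 9.26. As a sign of RNA quality, the SPT15 probe set at the 3' end exceeded the one at the 5' end by 1.84 to 2.22 on the 12 rad23 and snf1rad23 arrays, against 1.18 to 1.69 on the other 29, while the ranges overlapped for SRB4 and ACT1. Its part in the results on rad23 and snf1rad23 was not tested. The 2 WT arrays at 60 min differed from each other more than any other pair, with 780 of 5380 probe sets over 2-fold apart, against 5 to 384 for the other pairs. Replicate 2 gave the lower signal for 7 of the 8 genes there, BUD4 by 1.43. A gene was called in a comparison at an adjusted p under 0.05 from limma, with Benjamini-Hochberg adjustment over the 5380 tested probe sets.

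Across the 21 groups the 8 genes spanned different ranges. HOF1 had the widest range of group means, with 5.65 in snf1 at 60 min the lowest and 10.10 in unirradiated rad4 the highest. ASE1 came next, with 5.41 in rad4 at 60 min and 9.71 in unirradiated snf1. CDC20 spanned least, with 8.08 in snf1 at 60 min and 10.09 in unirradiated rad23. The highest group mean of every one of the 8 genes was an unirradiated group, and the lowest was in snf1, snf1rad23 or rad4. When the 21 group means of a gene are put in order, few of the 20 steps between neighbours exceed the pooled SD within groups: 8 for CDC5, 7 for BUD4, 4 for CLB2, 4 for SWI5, 3 for ASE1, 3 for HOF1, 2 for CLB1 and 1 for CDC20. For ASE1 the step of 1.38 that sets rad4 at 60 min below every other group was the largest of its steps, and for HOF1 the step of 1.09 that sets snf1 at 60 min lowest.

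**Figure D1:**
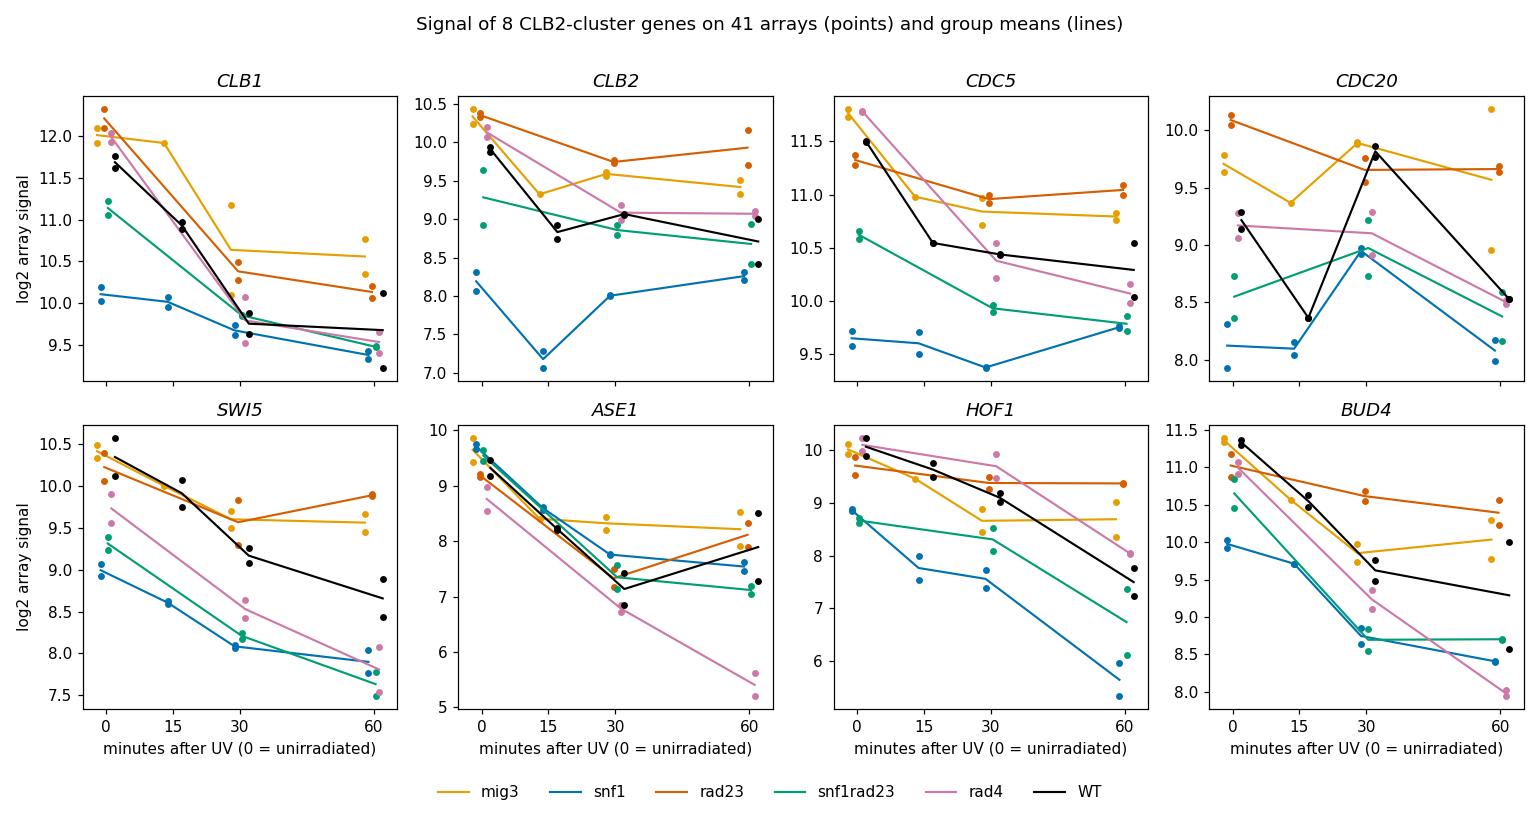
Log2 array signal (vertical axis) of each gene on every array (points) with group means joined by strain (lines), against minutes after UV, where 0 is unirradiated and points are set slightly apart by strain. CLB1, CDC20, SWI5, ASE1, HOF1 and BUD4 have lower means at 60 min than unirradiated in every strain. CLB2 and CDC5 do so in every strain but snf1. CDC20 in WT is lowest at 15 min with 8.36 and 8.37 and highest at 30 min with 9.77 and 9.87.

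The question of the time course is how transcripts respond to UV in each strain. In WT all 8 genes were lower 60 min after UV, by 1.61-fold (CDC20) to 5.91-fold (HOF1). The cyclin CLB2, the polo kinase CDC5 and ASE1 were called lower from 15 min on, and CLB1, SWI5, HOF1 and BUD4 from 30 min on. CDC20 was called lower at 15 and 60 min. All 8 differences at 15 min were negative and 7 had an unadjusted p under 0.05 in limma. The first called time is therefore not a time of onset. CLB1 and CLB2 encode the B-type cyclins that direct the kinase Cdc28 into mitosis. CLB1 signal in WT was 11.62 and 11.75 unirradiated, 10.89 and 10.97 at 15 min, 9.88 and 9.64 at 30 min and 10.13 and 9.23 at 60 min. All irradiated arrays were below both unirradiated ones, and those at 30 and 60 min were below those at 15 min. The change was -0.76 ± 0.26 (SE) at 15 min with an adjusted p of 0.089, -1.93 ± 0.26 at 30 min (3.80-fold lower, adjusted p = 1.4e-05) and -2.0 ± 0.26 at 60 min (4.01-fold lower, adjusted p = 7.13e-06). CLB2 signal was 9.88 and 9.94 unirradiated, 8.74 and 8.92 at 15 min, 9.07 and 9.06 at 30 min and 9.0 and 8.42 at 60 min. CLB2 was called from the first time on, falling by 1.08 ± 0.20 at 15 min, 0.84 ± 0.20 at 30 min and 1.20 ± 0.20 at 60 min. Its paralog CLB1 was not called at 15 min, but the changes of these genes were not tested against each other. Whether the CLB1 and CLB2 probe sets detect each other's transcript was not tested.

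CDC5, the polo kinase needed for mitotic exit and cytokinesis, had the most even replicates. Its WT signal was 11.49 and 11.51 unirradiated, 10.55 and 10.55 at 15 min, 10.44 and 10.44 at 30 min and 10.54 and 10.04 at 60 min. Every irradiated array was below both unirradiated ones, and CDC5 fell by 0.95 ± 0.13, 1.06 ± 0.13 and 1.21 ± 0.13 at 15, 30 and 60 min. CDC20, which activates the anaphase-promoting complex at the onset of anaphase, took another course. Its WT signal was 9.14 and 9.29 unirradiated, 8.36 and 8.37 at 15 min, 9.77 and 9.87 at 30 min and 8.52 and 8.53 at 60 min. Both arrays at 30 min were above both unirradiated arrays, and those at 15 and 60 min were below. The change was -0.85 ± 0.24 at 15 min (adjusted p = 0.0369), 0.60 ± 0.24 at 30 min (adjusted p = 0.074) and -0.69 ± 0.24 at 60 min (adjusted p = 0.0353). CDC20 lost both of its WT calls without any 1 of the 4 arrays compared (adjusted p 0.106 to 0.265 at 15 min and 0.0708 to 0.156 at 60 min). Both were also lost with quantile normalization (adjusted p 0.2275 at 15 min and 0.0896 at 60 min) and with median centring (0.0763 and 0.0529). With quantile normalization the change at 15 min was -0.61.

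SWI5 encodes a transcription factor for genes of late mitosis and early G1. Its signal in WT was 10.11 and 10.57 unirradiated, 9.75 and 10.07 at 15 min, 9.08 and 9.26 at 30 min and 8.88 and 8.43 at 60 min, a stepwise decline in which only the 15 min arrays came near the unirradiated ones. SWI5 changed by -0.43 ± 0.20 at 15 min, which was not called, and fell by 1.18 ± 0.20 at 30 min and 1.69 ± 0.20 at 60 min. ASE1 bundles the microtubules of the spindle midzone. Its WT signal was 9.18 and 9.46 unirradiated, 8.20 and 8.23 at 15 min, 6.84 and 7.43 at 30 min and 8.5 and 7.28 at 60 min. The change at 15 min was -1.10 (adjusted p = 0.0204), a call lost without any 1 of the 4 arrays compared. The lowest mean came at 30 min, where ASE1 was 4.54-fold lower (-2.18 ± 0.28, adjusted p = 1.1e-05), and the 2 arrays at 60 min stood 1.22 apart. Its change of -1.43 ± 0.28 at 60 min was -0.82 without replicate 2. HOF1, an F-BAR protein of the cytokinetic ring, declined late: its signal was 9.89 and 10.23 unirradiated, 9.49 and 9.76 at 15 min, 9.01 and 9.18 at 30 min and 7.77 and 7.23 at 60 min. At 60 min HOF1 was 5.91-fold lower (-2.56 ± 0.30, adjusted p = 2.64e-06), the largest of the 8 changes in WT. BUD4 marks the site of the next bud with the septins. Its signal was 11.31 and 11.36 unirradiated, 10.46 and 10.63 at 15 min, 9.48 and 9.77 at 30 min and 10.00 and 8.58 at 60 min, and it fell by 1.71 ± 0.27 at 30 min and 2.04 ± 0.27 at 60 min, with a change of -1.33 at 60 min without replicate 2.

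In WT, 4 of the 8 genes were called lower at 15 min (CLB2, CDC5, CDC20 and ASE1), against 4.59% of all tested probe sets. At 30 min 7 of 8 were lower, all but CDC20, against 12.6%, and at 60 min 8 of 8, against 18.5%. The median change of the 8 was -0.82, -1.12 and -1.56 at the 3 times, beside -0.05, 0.00 and -0.05 for all tested probe sets. With only the WT arrays in the fit, CLB2, CDC5 and ASE1 lost their 15 min calls (adjusted p 0.0884, 0.0845 and 0.308), and CDC20 kept its own. That fit also ended the calls of BUD4 at 30 min (adjusted p = 0.0563) and of ASE1 at 60 min (adjusted p = 0.0752). The count at 15 min was 2 without any 1 array, as ASE1 lost its call along with CDC20 (adjusted p 0.0517 to 0.216), and 1 with only the WT arrays in the fit. The count at 60 min was 7 without any 1 array and 5 with arrays weighted by quality, where CLB2, CDC20 and ASE1 were not called. Without WT 30 min replicate 1, replicate 2 or WT unirradiated replicate 2, HOF1 was not called at 30 min (highest adjusted p 0.171).

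**Figure D2:**
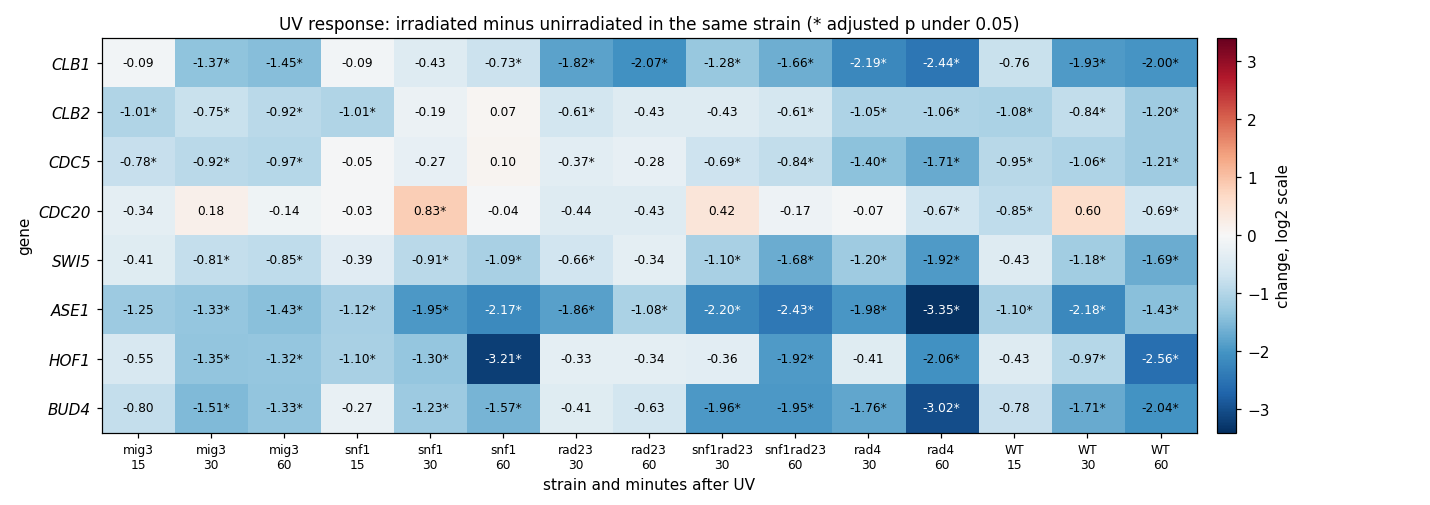
Change of each gene (rows) after UV on the log2 scale, irradiated minus unirradiated in the same strain, for each strain and time in minutes (columns), with blue for lower, red for higher and an asterisk for an adjusted p under 0.05. Most cells are blue, the deepest are ASE1 in rad4 at 60 min (-3.35) and HOF1 in snf1 at 60 min (-3.21), and CDC20 in snf1 at 30 min (0.83) is the only called rise.

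In rad4, which lacks the lesion-binding repair protein, the median change of the 8 at 60 min was -1.99, beside 0.00 for all tested probe sets. At 60 min ASE1 signal was 5.61 and 5.20 in irradiated rad4, against 8.98 and 8.54 unirradiated, a 10.2-fold fall (-3.35 ± 0.28, adjusted p = 4.45e-09). BUD4 had 7.94 and 8.02 at 60 min, against 11.08 and 10.92 unirradiated, and was 8.09-fold lower. CLB1 had 9.41 and 9.66 at 60 min, against 11.93 and 12.04 unirradiated, and was 5.44-fold lower. No array of these groups overlapped. In rad4, 6 of 8 genes were lower at 30 min (all but CDC20 and HOF1), against 18% of all tested probe sets, and 8 of 8 at 60 min, against 26.9%. CDC20 at 60 min was not called without 3 of the 4 rad4 arrays (highest adjusted p 0.145). Between 30 and 60 min SWI5, ASE1, HOF1 and BUD4 fell in rad4 (-0.72 ± 0.20, -1.38 ± 0.28, -1.65 ± 0.30 and -1.26 ± 0.27), and 16.5% of all tested probe sets were lower. The SWI5 call in that comparison was lost without rad4 30 min replicate 1 or 60 min replicate 2 (highest adjusted p 0.187).

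In rad23 the median change at 60 min was -0.43, beside 0.07 for all tested probe sets, and CLB1 and ASE1 alone were called. All 8 differences at that time were negative, and 5 had an unadjusted p under 0.05 in limma. CLB1 signal was 10.21 and 10.06 in irradiated rad23 at 60 min, against 12.32 and 12.10 unirradiated, and was 4.20-fold lower. HOF1 had 9.35 and 9.38 at 60 min, against 9.87 and 9.53 unirradiated, and SWI5 9.90 and 9.88, against 10.39 and 10.05. Each irradiated array was below each unirradiated one for both genes, but the differences of -0.34 ± 0.30 and -0.34 ± 0.20 were not called. In rad23, 5 of 8 genes were lower at 30 min (CLB1, CLB2, CDC5, SWI5 and ASE1), against 13.1% of all tested probe sets, and 2 of 8 at 60 min (CLB1 and ASE1), against 19.3%. CLB2 and CDC5 lost their calls at 30 min without any 1 of the 4 arrays (adjusted p 0.0766 to 0.112 for CLB2 and 0.0769 to 0.17 for CDC5), and SWI5 without rad23 unirradiated replicate 1 or 30 min replicate 2 (highest adjusted p 0.277). ASE1 lost its call at 60 min without rad23 60 min replicate 2 (adjusted p = 0.0685). With array weights 6 genes were called at 60 min. Between 30 and 60 min none of the 8 was called in rad23, where 9.48% of all tested probe sets were called in either direction. ASE1, the 1 gene of the 8 with an unadjusted p under 0.05 in limma, had 8.33 and 7.89 at 60 min, against 7.49 and 7.17 at 30 min, a difference of 0.78 ± 0.28 (adjusted p = 0.082) with no overlap. Array weights, the rad23 arrays alone and quantile normalization each called 1 gene.

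In snf1 CLB2 and CDC5 were not called at 30 or 60 min, while SWI5 and the genes of the spindle and bud neck fell. CLB2 signal in snf1 was 8.32 and 8.07 unirradiated, 7.29 and 7.07 at 15 min, 8.0 and 8.01 at 30 min and 8.21 and 8.31 at 60 min. It was lowest at 15 min, the only time at which it was called, still below both unirradiated arrays at 30 min and within their range at 60 min. CDC5 was 9.72 and 9.58 unirradiated and between 9.37 and 9.77 on the 6 irradiated arrays, so its changes of -0.05 ± 0.13, -0.27 ± 0.13 and 0.10 ± 0.13 at 15, 30 and 60 min were not called. HOF1 in snf1 was 8.84 and 8.88 unirradiated, 8.0 and 7.53 at 15 min, 7.72 and 7.39 at 30 min and 5.96 and 5.34 at 60 min. With no overlap between unirradiated and irradiated arrays, HOF1 was 9.28-fold lower at 60 min (-3.21 ± 0.30, adjusted p = 3.22e-08). ASE1 fell by 1.12 ± 0.28, 1.95 ± 0.28 and 2.17 ± 0.28 at the 3 times.

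CDC20 in snf1 was 8.31 and 7.93 unirradiated, 8.15 and 8.04 at 15 min, 8.92 and 8.97 at 30 min and 7.99 and 8.17 at 60 min. As in WT, both arrays at 30 min stood above the rest, and here the rise of 0.83 ± 0.24 was called (adjusted p = 0.0127). Without snf1 unirradiated replicate 2 or either array at 30 min the call was lost (highest adjusted p 0.144). In snf1, 3 of 8 genes were lower at 15 min (CLB2, ASE1 and HOF1), against 6.06% of all tested probe sets. At 30 min 4 were lower (SWI5, ASE1, HOF1 and BUD4), against 15.3%, and CDC20 was higher, against 15.7%. At 60 min 5 were lower (CLB1, SWI5, ASE1, HOF1 and BUD4), against 21%. The count at 15 min was 1 or 2 without 1 array, as ASE1 lost its call without any of the 4 and HOF1 without 3 of them (highest adjusted p 0.107 and 0.248). CLB1 at 60 min lost its call without any 1 array (adjusted p 0.0607 to 0.129).

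In snf1rad23 5 of 8 genes were lower at 30 min (CLB1, CDC5, SWI5, ASE1 and BUD4), against 16.1% of all tested probe sets, and 7 of 8 at 60 min, all but CDC20, against 25.6%. SWI5 signal was 7.78 and 7.49 in snf1rad23 at 60 min, against 9.38 and 9.24 unirradiated. ASE1 had 7.04 and 7.19 at 60 min, against 9.45 and 9.64 unirradiated, and was 5.39-fold lower. HOF1 at 60 min was 6.12 on 1 array and 7.36 on the other, against 8.71 and 8.61 unirradiated, so its fall of 1.92 ± 0.30 rests on unequal replicates. CLB2, at 8.93 and 8.42 against 9.64 and 8.93 unirradiated, was not called at 60 min without snf1rad23 unirradiated replicate 1 or 60 min replicate 2 (highest adjusted p 0.341). Between 30 and 60 min SWI5 and HOF1 fell by 0.58 ± 0.20 and 1.57 ± 0.30, against 11.6% of all tested probe sets lower, and SWI5 lost its call without any 1 array (highest adjusted p 0.229). The HOF1 change was -0.95 without snf1rad23 60 min replicate 1.

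In mig3, 2 of 8 genes were lower at 15 min (CLB2 and CDC5), against 0.483% of all tested probe sets, from 1 irradiated array. Both calls were lost without either unirradiated mig3 array (adjusted p 0.0693 to 0.296). At 30 min 7 of 8 were lower, against 9.44%, and at 60 min 7 of 8, against 6.75%, in both cases all but CDC20. BUD4 signal was 9.77 and 10.30 in mig3 at 60 min, against 11.34 and 11.40 unirradiated, and CLB1 was 10.34 and 10.77, against 12.10 and 11.92. At 30 min CLB1 had 10.10 and 11.17, and its change of -1.37 ± 0.26 was -0.83 without replicate 1. CDC20 at 60 min was 8.95 on 1 array and 10.18 on the other, 1 below and 1 above both unirradiated arrays at 9.78 and 9.63. Leaving out 1 mig3 array ended the calls of CLB2 and SWI5 at both times and of HOF1 at 60 min, in each case without an unirradiated array or, for CLB2 at 30 min and HOF1, also without 1 irradiated one (highest adjusted p 0.0956). With only the mig3 arrays in the fit none of these calls was made (adjusted p 0.0799 to 0.161 at 30 and 60 min). Between 30 and 60 min none of the 8 was called in mig3, where 0% of all tested probe sets were called and no gene of the 8 had an unadjusted p under 0.05 in limma. Without mig3 60 min replicate 2 the count was 1.

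Between 30 and 60 min in WT, CDC20 fell by 1.29 ± 0.24 and HOF1 by 1.6 ± 0.30, against 16.4% of all tested probe sets lower, and ASE1 rose by 0.76 ± 0.28 (adjusted p = 0.0495), against 11.7% higher. The ASE1 arrays overlapped, and its rise was not called without WT 60 min replicate 1 or WT 30 min replicate 1 (highest adjusted p 0.704). The count of 3 was 6 without WT 60 min replicate 1 and 0 with array weights. In snf1 CDC20 fell by 0.87 ± 0.24 and HOF1 by 1.91 ± 0.30 over the same interval, against 12.3% lower, and CDC5 rose by 0.38 ± 0.13, against 12% higher. CDC5 lost this call without any 1 of the 4 arrays and CDC20 without 3 of them (highest adjusted p 0.139 and 0.0949).

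The step between 15 and 30 min was compared after the values had been seen. CDC20 rose by 1.45 ± 0.24 in WT (adjusted p = 0.000459), against 7.25% of all tested probe sets higher, and this call was kept without any 1 of the 4 arrays. CLB1, SWI5, ASE1 and BUD4 fell over that interval (-1.17 ± 0.26, -0.74 ± 0.20, -1.08 ± 0.28 and -0.93 ± 0.27), against 3.01% lower, and each of these calls was lost without 2 or more of the 4 WT arrays (highest adjusted p 0.242). In snf1 CDC20 rose by 0.85 ± 0.24 and CLB2 by 0.83 ± 0.20, against 5.04% higher, and BUD4 fell by 0.97 ± 0.27, against 3.09% lower. All 3 snf1 calls were lost without at least 3 of the 4 arrays (highest adjusted p 0.202). In mig3 CLB1 fell by 1.27 ± 0.31, against 1.02% lower, a call lost without mig3 30 min replicate 1 (adjusted p = 0.0902).

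Unirradiated deletion strains were compared with unirradiated WT, the control named in the design. In snf1 7 of the 8 genes were lower without any irradiation, while ASE1 was not. CDC5 signal was 9.72 and 9.58 in unirradiated snf1, against 11.49 and 11.51 in unirradiated WT, a 3.60-fold difference (-1.85 ± 0.13, adjusted p = 1.4e-10). CLB2 had 8.32 and 8.07 in snf1, against 9.88 and 9.94 in WT (-1.72 ± 0.20), and CLB1 10.19 and 10.03, against 11.62 and 11.75 (-1.57 ± 0.26). All 4 snf1 values of the 2 cyclins were lower than any WT value of the same gene. The differences were -1.36 ± 0.27 for BUD4, -1.35 ± 0.20 for SWI5, -1.20 ± 0.30 for HOF1 and -1.09 ± 0.24 for CDC20. ASE1 had 9.76 and 9.66 in snf1, against 9.18 and 9.46 in WT, which is higher on both arrays but not called (0.39 ± 0.28, adjusted p = 0.281). The 7 of 8 stand against 23.6% of all tested probe sets lower and 21.6% higher in snf1, and the count was 7 without any 1 array.

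In unirradiated snf1rad23 6 of 8 genes were lower than in WT, all but CLB1 and ASE1, against 21.4% of all tested probe sets. HOF1 signal was 8.71 and 8.61 in snf1rad23, against 9.89 and 10.23 in WT (-1.40 ± 0.30), and CDC5 10.59 and 10.66, against 11.49 and 11.51 (-0.88 ± 0.13). The count was 3 without snf1rad23 replicate 2 or WT replicate 2, since CLB2, CDC20 and BUD4 lost their calls (highest adjusted p 0.33, 0.22 and 0.261). In unirradiated rad23 only CDC20 was called, at 10.13 and 10.05, against 9.14 and 9.29 in WT, higher by 0.87 ± 0.24 (adjusted p = 0.00522) with 22.2% of all tested probe sets higher. None of the 8 was called in mig3 or rad4, where 8.31% and 6.75% of all tested probe sets were called in either direction. In each of these 2 strains 2 of the 8 had an unadjusted p under 0.05 in limma (CLB2 and CDC5 in mig3, SWI5 and CDC5 in rad4). Array weights called 2 in rad4 and 3 in rad23.

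**Figure D3:**
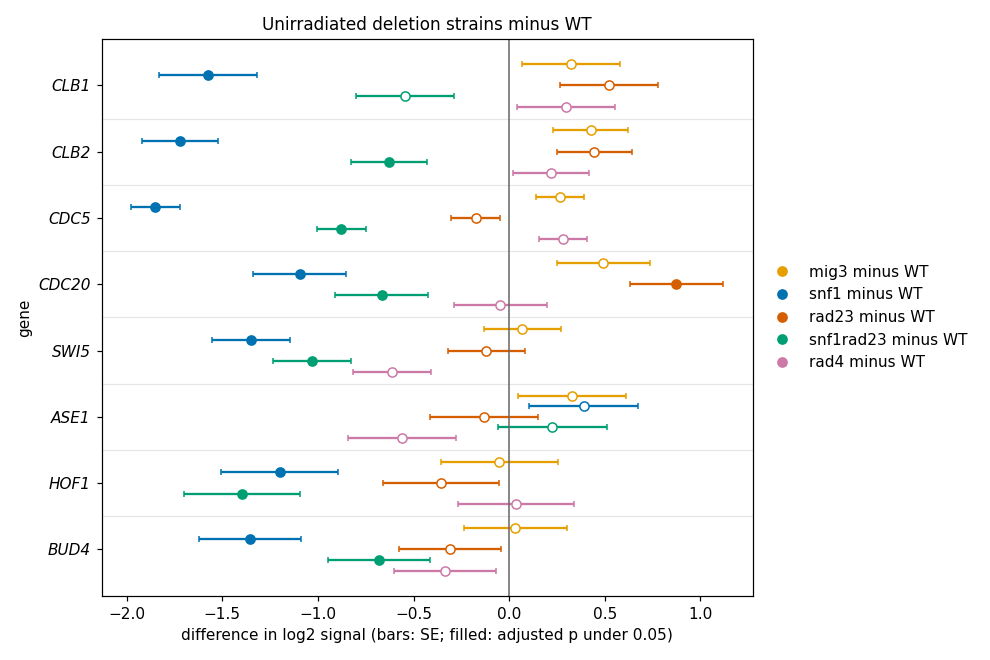
Difference of each gene (rows) between an unirradiated deletion strain and unirradiated WT on the log2 scale (horizontal axis), with bars for the SE and filled points for an adjusted p under 0.05. The snf1 points lie between -1.85 and -1.09 for every gene except ASE1 at 0.39, and those of snf1rad23 lie closer to 0 than those of snf1 for all genes with a lower snf1 value except HOF1.

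The double deletion strain was set against each single one. In unirradiated cells CLB1, CLB2 and CDC5 were higher in snf1rad23 than in snf1, by 1.03 ± 0.26, 1.09 ± 0.20 and 0.97 ± 0.13, against 9.42% of all tested probe sets higher. CLB2 signal was 9.64 and 8.93 in snf1rad23, against 8.32 and 8.07 in snf1, with no overlap. The CLB1 call was lost without snf1 replicate 2 or snf1rad23 replicate 1 (highest adjusted p 0.0738). Against rad23, 6 of 8 genes were lower in unirradiated snf1rad23, all but ASE1 and BUD4, with 14.4% of all tested probe sets lower. CDC20 differed most, at 8.73 and 8.37 in snf1rad23, against 10.13 and 10.05 in rad23 (-1.54 ± 0.24, adjusted p = 5.66e-05). HOF1 lost its call there without 3 of the 4 arrays (highest adjusted p 0.113).

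Whether a deletion alters the response to UV was tested as the difference between 2 responses. Such a difference uses the same unirradiated arrays as the comparison of unirradiated strains. In snf1 the response of CDC5 was less negative than in WT at every time, and that of CLB1 and CLB2 at 60 min, where the mean change of CLB2 and CDC5 in snf1 was slightly above 0. The CDC5 response in snf1 minus that in WT was 0.91 ± 0.18 at 15 min, 0.79 ± 0.18 at 30 min and 1.31 ± 0.18 at 60 min (adjusted p = 0.00941, 0.0107 and 3.36e-05). That of CLB1 was 1.49 ± 0.36 at 30 min and 1.28 ± 0.36 at 60 min, and that of CLB2 1.27 ± 0.28 at 60 min. These are 1 gene of 8 at 15 min, against 1.41% of all tested probe sets higher, 2 at 30 min, against 2.14%, and 3 at 60 min, against 11.6%. At 60 min CDC5 signal itself was 9.74 and 9.77 in snf1, against 10.54 and 10.04 in WT. Without snf1 unirradiated replicate 2 no gene was called at 15 or 30 min and CLB1 was not called at 60 min. CDC5 at 15 min was also not called without snf1 15 min replicate 1 (highest adjusted p 0.0713). The CLB1 call was further lost at 30 min without WT unirradiated replicate 2, WT 30 min replicate 2 or snf1 30 min replicate 1, and at 60 min without WT unirradiated replicate 2 or WT 60 min replicate 2 (highest adjusted p 0.0818 at 30 min and 0.0811 at 60 min).

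In rad23 the responses of 4 genes were less negative than in WT at 60 min. The response in rad23 minus that in WT was 2.23 ± 0.43 for HOF1 (adjusted p = 0.00164), 1.41 ± 0.38 for BUD4, 1.35 ± 0.29 for SWI5 and 0.93 ± 0.18 for CDC5, against 8.61% of all tested probe sets higher. HOF1 is the clearest of them by value, at 9.35 and 9.38 in rad23 at 60 min, against 7.77 and 7.23 in WT, with unirradiated arrays at 9.87 and 9.53 in rad23, against 9.89 and 10.23 in WT. None of the 4 was called with array weights (adjusted p 0.0596 to 0.118). Without 1 array the count was 3 to 5, and BUD4 was the call lost, without WT 60 min replicate 2, rad23 unirradiated replicate 2 or rad23 60 min replicate 2 (highest adjusted p 0.075). At 30 min CDC5 alone was called (0.69 ± 0.18, adjusted p = 0.0321), against 1.41% higher, and it lost the call without any 1 of the 8 arrays (adjusted p 0.0635 to 0.132).

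In rad4 the fall of ASE1 at 60 min was larger than in WT (difference -1.93 ± 0.40, adjusted p = 0.00204), against 9.07% of all tested probe sets lower, and this call was kept without any 1 of the 8 arrays. Without WT 60 min replicate 2, the lower of the 2, the count of genes called was 3. At 30 min none of the 8 was called in rad4, where 0.818% of all tested probe sets were called in either direction and none of the 8 had an unadjusted p under 0.05 in limma. The mig3 response did not differ from that of WT by a called amount for any of the 8, where 0.0186%, 0.948% and 0.836% of all tested probe sets were called at 15, 30 and 60 min. Of the 8, 0, 1 and 2 had an unadjusted p under 0.05 in limma at those times. Without mig3 60 min replicate 1 or WT 60 min replicate 1 the mig3 count at 60 min was 2, and without mig3 30 min replicate 1 that at 30 min was 1. In snf1rad23 none was called at 30 or 60 min, against 3.16% and 19.7%, with 0 and 2 of the 8 at an unadjusted p under 0.05. At 60 min the snf1rad23 count was 3 without WT 60 min replicate 1 and 1 without any of 4 other arrays.

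**Figure D4:**
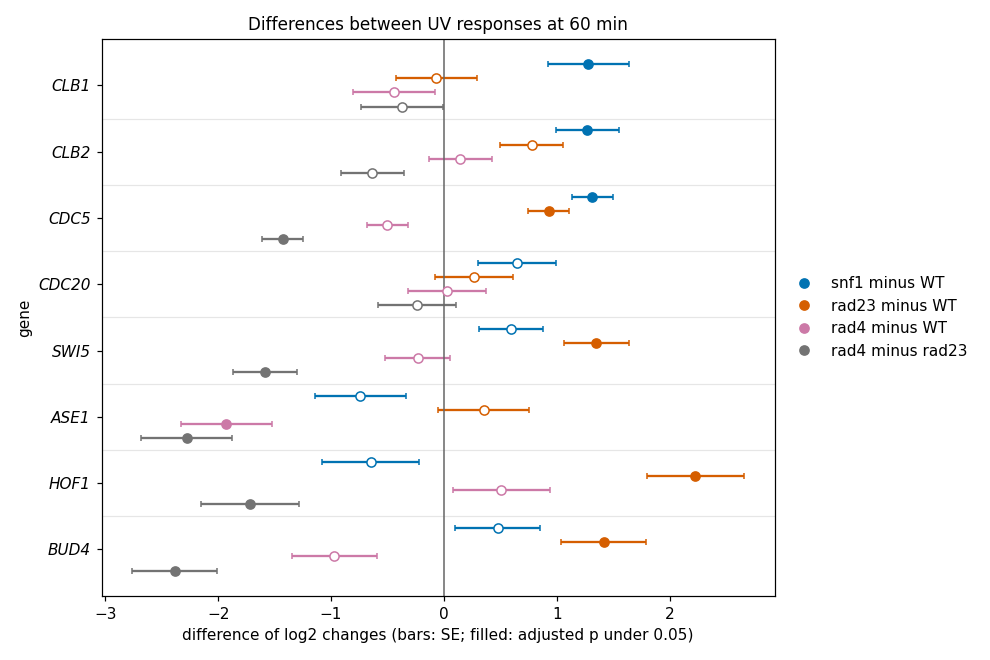
Difference between the UV responses of 2 strains at 60 min on the log2 scale (horizontal axis) for each gene (rows), with bars for the SE and filled points for an adjusted p under 0.05. Positive values mean a less negative or more positive response in the strain named first: HOF1 in rad23 minus WT reaches 2.23, and the 5 filled points of rad4 minus rad23 lie between -2.38 and -1.43.

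The 2 repair mutants, which lack partners of 1 complex, differed from each other. At 60 min the responses of 5 genes were lower in rad4 than in rad23, with response differences of -2.38 ± 0.38 for BUD4, -2.28 ± 0.40 for ASE1, -1.72 ± 0.43 for HOF1, -1.58 ± 0.29 for SWI5 and -1.43 ± 0.18 for CDC5, against 10.9% of all tested probe sets lower. The count was 5 without any 1 of the 8 arrays. BUD4 signal at 60 min was 7.94 and 8.02 in rad4, against 10.23 and 10.56 in rad23, from unirradiated values of 11.08 and 10.92 in rad4, against 11.17 and 10.88 in rad23. The unirradiated groups overlapped and the irradiated ones did not. At 30 min the responses of CDC5 and BUD4 were lower in rad4 than in rad23 (-1.04 ± 0.18 and -1.35 ± 0.38), against 3.14% lower, and BUD4 lost the call without any 1 array (adjusted p 0.0576 to 0.13). In unirradiated cells CDC5 was higher in rad4 than in rad23 by 0.46 ± 0.13, against 30.8% higher, and CDC20 and SWI5 were lower (-0.92 ± 0.24 and -0.49 ± 0.20), against 22.5% lower. The SWI5 difference was not called without rad23 replicate 1 or rad4 replicate 2 (highest adjusted p 0.296).

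Between the double deletion strain and the single ones, responses differed for a few genes. At 60 min the CDC5 response was lower in snf1rad23 than in snf1 (difference -0.94 ± 0.18, adjusted p = 0.000494), against 16.1% of all tested probe sets lower, and HOF1 fell less (1.29 ± 0.43), against 15.9% higher. The HOF1 call rests on the 2 unequal snf1rad23 arrays and was lost without 5 of the 8 arrays (highest adjusted p 0.21). At 30 min none of the 8 was called, against 4.91% in either direction, while 3 had an unadjusted p under 0.05 in limma. Compared with rad23, the BUD4 response was lower in snf1rad23 at 30 min (-1.55 ± 0.38), against 1.51% lower. SWI5, ASE1, HOF1 and BUD4 had lower responses at 60 min, with differences of -1.34 ± 0.29, -1.35 ± 0.40, -1.58 ± 0.43 and -1.32 ± 0.38, against 3.61% lower. Of these 5 calls only that of SWI5 was kept without any 1 array, and the count at 60 min ranged from 1 to 5 (highest adjusted p of the others 0.186).

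Levels at 60 min were compared with WT at 60 min after the values had been seen. In rad23 6 of 8 genes were higher than in WT, all but CLB1 and ASE1, against 29.3% of all tested probe sets higher. HOF1 differed most (1.87 ± 0.30). BUD4 was higher by 1.10 ± 0.27, a difference of 0.39 and no call without WT 60 min replicate 2 (adjusted p = 0.115) and of 1.82 without replicate 1. In rad4 SWI5, ASE1 and BUD4 were lower (-0.85 ± 0.20, -2.49 ± 0.28 and -1.31 ± 0.27), against 17.6% lower, and SWI5 was not called without rad4 60 min replicate 2 (adjusted p = 0.066). With WT 60 min replicate 2 as the lone WT array the BUD4 difference was -0.59, and with replicate 1 -2.02, called in both cases. In snf1 4 genes were lower, against 2.66%, and in snf1rad23 4, against 25%. HOF1 was the lowest against WT in snf1 (-1.85 ± 0.30) and SWI5 in snf1rad23 (-1.02 ± 0.20). In mig3 CDC20 and SWI5 were higher, by 1.04 ± 0.24 and 0.90 ± 0.20, against 0.502% higher. CDC20 lay at 8.95 and 10.18 in mig3, against 8.52 and 8.53 in WT, and without mig3 60 min replicate 2 the CDC20 difference was 0.43 (adjusted p = 0.497). SWI5 lost its call without that array (adjusted p = 0.163) or WT 60 min replicate 2. Without WT 60 min replicate 1 the counts were 1 in snf1, 1 in snf1rad23 and 8 in mig3, and with array weights 0 in each of the 3. Without mig3 60 min replicate 1 or 2 the mig3 count was 7 or 0. CDC5 and BUD4 in snf1 and ASE1 in snf1rad23 also lost their calls without either array of the deletion strain.

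Other genes of the cluster were taken from a list. The 21 of them with a matched probe set were tested. In WT 6, 14 and 16 of the 21 were lower at 15, 30 and 60 min and none was higher, against 4.59%, 12.6% and 18.5% of all tested probe sets lower, with median changes of -0.45, -0.77 and -1.12. SFG1, a regulator of pseudohyphal growth, fell by 2.29 ± 0.22 at 30 min and 2.69 ± 0.22 at 60 min in WT. AIM20 changed by -2.47 ± 0.28 and IRC8 by -1.97 ± 0.22 at 60 min, and MYO1, the myosin of the cytokinetic ring, by -1.92 ± 0.62 at 30 min. In rad4 18 of the 21 were lower at 60 min, against 26.9%, and in rad23 9 were lower, against 19.3%, and 1 higher, against 23.8%. In unirradiated snf1 15 of the 21 were lower, against 23.6%, and 2 higher, against 21.6%, with a median of -0.71. Over the 21 groups, the genes outside the 8 whose group means most resembled the mean of the 8 standardised profiles were MMR1 (Pearson's r = 0.955), which carries mitochondria to the bud, KIN3 (0.903), a NimA-type kinase, CHS2 (0.885), the chitin synthase of the primary septum, ALK1 (0.882), a haspin-type kinase, and MCM7 (0.869), a subunit of the replicative helicase. The first 4 are on the cluster list. These 21 means share strains, times and normalization, and r is given as a description. Between the 8 genes themselves r over the 21 means was 0.12 (CDC20 and ASE1) to 0.95 (SWI5 and BUD4), with a median of 0.70 over 28 pairs.

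Among the regulators of the cluster, MCM1 in WT fell by 1.49 ± 0.18 at 30 min and 1.18 ± 0.18 at 60 min. NDD1, the coactivator, changed by -1.22 ± 0.26 and -0.99 ± 0.26 at these times, and FKH1, the second forkhead gene, by -0.90 ± 0.20 and -1.22 ± 0.20, and all 4 changes were called. YHP1, a homeobox repressor of Mcm1 target genes, rose by 1.35 ± 0.21 at 30 min and 0.57 ± 0.21 at 60 min. Of the 6 regulators, 4 were lower and 1 higher in WT at 60 min, against 18.5% and 12.1% of all tested probe sets. In unirradiated snf1 5 were lower, against 23.6%, with NDD1 at -1.32 ± 0.26, FKH1 at -1.67 ± 0.20 and MCM1 at -0.92 ± 0.18. In rad23 at 60 min MCM1 changed by -0.91 ± 0.18 and FKH1 by 0.04 ± 0.20, and the change of FKH1 was not called.

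Further cell cycle lists were counted in WT, where 12.6% of all tested probe sets were lower and 12.6% higher at 30 min and 18.5% lower and 12.1% higher at 60 min. In the mitotic exit network 7 of 12 genes were lower at 30 min and 7 of 12 at 60 min. BFA1 changed by -2.39 ± 0.45 at 30 min and NUD1 by -1.86 ± 0.23 at 60 min, and NUD1 is also on the cluster list. Of 9 genes of Cdc28 and its control 4 were lower at 60 min, among them MIH1, the phosphatase that activates Cdc28 (-1.09 ± 0.17). Of 21 genes of the anaphase-promoting complex and the spindle checkpoint 1 was higher and 4 were lower at 30 min, and 2 were higher and 2 lower at 60 min, and both shares at 60 min are below those of all tested probe sets. CDC27, a subunit of that complex, rose by 1.68 ± 0.26 at 30 min, and MAD3, of the checkpoint, fell by 1.36 ± 0.21 at that time. Core histone genes, transcribed in S phase, were lower for 7 of 7 at 30 and at 60 min, with HTB2 at -2.47 ± 0.34 at 60 min. Of 20 transcripts of G1 and S phase, 10 were higher and 4 lower in WT at 60 min. PCL1 rose by 1.97 ± 0.38 and CLN2 fell by 1.62 ± 0.35 among them. In snf1 15 of the 20 were higher at 60 min, against 22.4%, after 18 of 20 had been lower in unirradiated snf1 than in WT, against 23.6%. Of 7 genes of the prereplication complex 1 was higher and 1 lower in WT at 60 min.

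**Figure D5:**
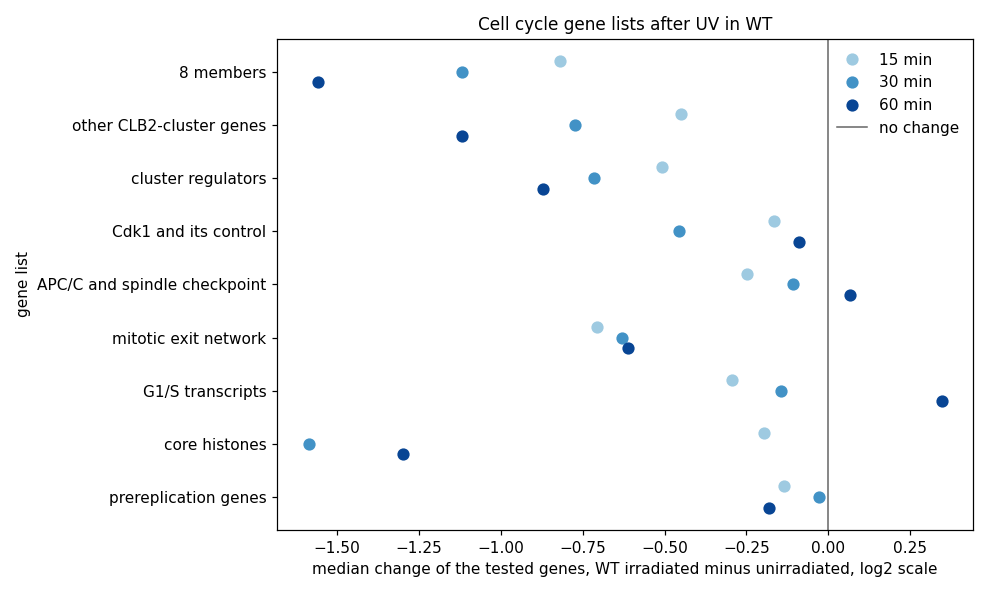
Median change of the tested genes of each list (rows) in WT after UV, irradiated minus unirradiated on the log2 scale (horizontal axis), at 15, 30 and 60 min (light to dark points). The 8 genes lie at -0.82, -1.12 and -1.56 and the other cluster genes at -0.45, -0.77 and -1.12.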

How the data were processed

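Total RNA was measured on 41 Affymetrix Yeast 2.0 arrays. The deposited values are log2 signals that the authors made with GCRMA 2.10.0 in R 2.6.2, per the submitters' processing notes. GCRMA corrects background by probe sequence and forces all arrays to like distributions, so a shift of all transcripts would not be seen. The number of arrays limits the precision. The 8 genes and the gene lists were chosen with earlier results of these data known.

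Of 10928 probe sets, 5498 matched a Saccharomyces cerevisiae gene, and 5380 with a log2 signal of at least 4 on at least 2 arrays were tested, for 5337 genes. Where a gene had several probe sets, the one with the highest mean was used. The values, taken as deposited, were fitted with limma 3.58.1 in R 4.3.3 with 1 mean per group over all 41 arrays, so that the spread is shared, and a response difference is the interaction of strain and UV. The p-values were adjusted by Benjamini-Hochberg within each comparison and called under 0.05. The mig3 15 min array is assumed to vary like the other groups. Duplicates are described as biological replicates, but nothing states that they came from separate cultures. The p-values therefore measure the spread between these arrays, which may fall short of that between cultures. The test was tried on simulated data.

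Alternatives were no filter, quantile normalization, median centring, array weights, only the strains compared, the replicate number as a block and leaving arrays out in turn. The changes between 15 and 30 min and the levels at 60 min against WT were added after the data were seen. Named genes are the 8, the deleted genes, the 5 most alike by Pearson's r over group means, and from each list up to 3 called genes with the largest change in WT at 30 min and 3 at 60 min, with their values in other comparisons. The result of 1 gene list is not reported here.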

Additional observations from a re-analysis of the deposited data

Results flagged for a closer look

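Responses to UV that differed between strains by a called interaction in limma are collected here as values on the log2 scale, with no explanation. Each uses 2 unirradiated and 2 irradiated arrays a strain, and no group was large enough to look for single outlying arrays. A positive value is a less negative or more positive response in the strain named first. In snf1 minus WT they are CDC5 at 15, 30 and 60 min (0.91, 0.79 and 1.31), CLB1 at 30 and 60 min (1.49 and 1.28) and CLB2 at 60 min (1.27). In rad23 minus WT they are CDC5 at 30 and 60 min (0.69 and 0.93), and SWI5 (1.35), HOF1 (2.23) and BUD4 (1.41) at 60 min. In rad4 minus WT the value is that of ASE1 at 60 min (-1.93).

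In the double deletion strain snf1rad23 minus snf1 they are CDC5 (-0.94) and HOF1 (1.29) at 60 min. In snf1rad23 minus rad23 they are BUD4 at 30 min (-1.55) and SWI5 (-1.34), ASE1 (-1.35), HOF1 (-1.58) and BUD4 (-1.32) at 60 min. Between the repair mutants, rad4 minus rad23, they are CDC5 (-1.04) and BUD4 (-1.35) at 30 min and CDC5 (-1.43), SWI5 (-1.58), ASE1 (-2.28), HOF1 (-1.72) and BUD4 (-2.38) at 60 min.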

How the results depend on the processing

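Of 173 called results on the 8 genes, 89 kept their call under every alternative, 62 lost it without 1 array and 65 under another setting (43 under both), and none changed direction. Over 190 pairs of groups the deviations of same-numbered arrays correlated at -0.36 to 0.71, with a median of 0.03. The correlation was over 0.1 in 64 pairs and under -0.1 in 43. Some groups thus shared part of their deviations, with the same or the opposite sign. The replicate block ended 1 call (BUD4 in unirradiated snf1rad23 minus WT, adjusted p = 0.0506, main 0.0466) and made 1. That block is the same for all groups, so sharing within part of them was not tested. With 2 arrays a group, single arrays decide many calls near the threshold, and the cause of each change of count was not tested.

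Counts of the 8 genes called that moved by over 1.5 times follow as the reported and the alternative count. With array weights, after UV they were 8 and 5 in WT at 60 min, 2 and 4, 7 and 4, and 7 and 4 in mig3 at 15, 30 and 60 min, 3 and 5 in snf1 at 15 min and 2 and 6 in rad23 at 60 min. From 30 to 60 min they were 3 and 0 in WT, 3 and 6 in snf1, 0 and 1 in rad23 and 2 and 1 in snf1rad23, and from 15 to 30 min in snf1 3 and 7. Unirradiated against WT they were 1 and 3 in rad23 and 0 and 2 in rad4. For response differences they were 1 and 3 in snf1 minus WT at 15 min, 1 and 3, and 4 and 0 in rad23 minus WT at 30 and 60 min, 0 and 1 in snf1rad23 minus snf1 at 30 min and 4 and 2 in snf1rad23 minus rad23 at 60 min. Levels at 60 min against WT gave 2 and 0 in mig3, 4 and 0 in snf1 and 4 and 0 in snf1rad23. With only the strains compared in the fit, they were 4 and 1 in WT at 15 min, 2, 7 and 7 and 0 throughout in mig3, 3 and 5 in snf1 at 15 min, 2 and 5 in rad23 at 60 min, 3 and 6 in snf1, 0 and 1 in rad23 and 2 and 0 in snf1rad23 from 30 to 60 min. They were 5 and 1 in WT, 1 and 0 in mig3 and 3 and 6 in snf1 from 15 to 30 min, 1 and 2 in the snf1 minus WT response at 15 min, 0 and 1 in the snf1rad23 minus snf1 response at 30 min, and 2 and 0 in mig3 and 4 and 2 in snf1rad23 against WT at 60 min. With quantile normalization they were 4 and 2 in WT and 2 and 1 in mig3 at 15 min, 0 and 1 in rad23 and 2 and 1 in snf1rad23 from 30 to 60 min, 0 and 1 in the snf1rad23 minus WT response and 2 and 1 in the snf1rad23 minus snf1 response at 60 min, 2 and 1 in the rad4 minus rad23 response at 30 min and 2 and 0 in mig3 against WT at 60 min. Median centring gave 2 and 1 in mig3 at 15 min and in snf1rad23 from 30 to 60 min, and no filter 2 and 1 in mig3 at 15 min.

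Without 1 array, counts after UV were 2 in WT at 15 min, 0 in mig3 at 15 min, 1 to 2 in snf1 at 15 min, and 2 to 3 and 1 to 3 in rad23 at 30 and 60 min. From 30 to 60 min they were 2 to 6 in WT, 0 to 1 in mig3, 1 to 2 in snf1 and 1 in snf1rad23, and from 15 to 30 min 1 to 3 in WT, 0 to 1 in mig3 and 0 to 1 in snf1. In unirradiated snf1rad23 against WT they were 3 to 5. For responses against WT they were 0 to 1 and 0 to 2 in mig3 at 30 and 60 min, 0 to 1 and 0 to 2 in snf1 at 15 and 30 min, 0 in rad23 at 30 min, and 0 to 3 in snf1rad23 and 1 to 3 in rad4 at 60 min. They were 1 to 3 for snf1rad23 minus snf1 at 60 min, 0 to 1 and 1 to 5 for snf1rad23 minus rad23 at 30 and 60 min, and 1 for rad4 minus rad23 at 30 min. Levels at 60 min against WT gave 0 to 8 in mig3, 1 to 6 in snf1 and 1 to 5 in snf1rad23.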
